A study of Mus musculus with 62 samples.

Results

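The genes described here encode the core machinery of macroautophagy, the route by which a cell wraps its own contents in a double membrane and delivers them to the lysosome. They are the 35 genes on a list of machinery symbols that were looked up by name, out of 47643 genes in the deposited table, and all 35 were present and protein-coding. The list was divided by function into an induction complex of 5 genes, a class III phosphatidylinositol 3-kinase complex of 6, a set of 5 for membrane supply and binding of the lipid PI3P, 9 conjugation enzymes, 5 LC3 and GABARAP proteins, 4 cargo receptors, and the transcription factor Tfeb.

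RNA of the neocortex of female mice was sequenced in 62 libraries in a study of the wasting syndrome cachexia. Mice aged 2 months received melanoma cells that cause cachexia (CAC), melanoma cells that do not (NCAC) or a mock injection (labelled Con and called mock here), and were sampled after 2, 4, 6 or 8 weeks. Each of the 12 groups held 5 libraries, apart from CAC at 8 weeks with 7. The identity of the 2 cell lines is not given in the sources used here, and the host is C57BL6/J in the sample labels but NCI Ath/nude in the design text, so the strain is uncertain. Nude mice lack a thymus and most T cells, which would limit them as a model of host immunity. The labels name no transgene or deletion and describe the libraries as biological replicates, without saying that each came from its own animal.

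Levels are in TPM, the transcript abundance unit that scales each library to the same sum and corrects for transcript length. Depth, estimated from the steps between low values, was 44.9 to 50.7 M reads per library, and the lowest value of Tfeb, the least abundant of these genes, corresponded to about 219 reads. The tissue label was checked against markers: the 8 markers of cortical excitatory neurons summed to 2810 to 5920 TPM over the 62 libraries, whereas all 5 pigment cell markers had medians under 1 TPM in each of the 12 groups. The 7 striatal markers were not absent, and summed to 569 to 1430 TPM in the groups other than CAC at 4 weeks. In that group the lowest library had 158 TPM and the median was 1130 TPM. In bulk tissue, fewer cells of a type and less RNA per cell cannot be told apart. Of the libraries, 3 stood apart most in erythroid, striatal or thalamic markers and were left out together as an alternative. The 5 erythroid markers summed to 22500 TPM in CAC replicate 3 at 8 weeks, striatal markers lay 3.08 log2 units below the median in CAC replicate 1 at 4 weeks, and thalamic markers lay 2.48 and hypothalamic and pituitary markers 6.80 log2 units above it in mock replicate 5 at 2 weeks. Smaller rises of the hypothalamic and pituitary markers were seen in NCAC replicate 1 at 4 weeks (2.78) and CAC replicate 1 at 6 weeks (2.59), and erythroid markers were low in CAC replicate 4 at 8 weeks (-2.77). Choroid plexus markers, which varied widely in every group, were low in mock replicate 3 (-2.03) and CAC replicate 4 (-2.15) at 2 weeks and in CAC replicate 5 at 6 weeks (-2.33). Libraries of week 2, CAC at 4 weeks and 4 of the 5 NCAC libraries at 4 weeks were run on lane 3 and the rest on lane 4, so arms shared a lane at 2, 6 and 8 weeks but not at 4 weeks.

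Autophagy begins when the ULK kinase complex is released from inhibition by mTORC1, or is activated by AMPK, and stimulates the PI3 kinase complex that makes PI3P on the forming membrane. ATG9 vesicles and the lipid transfer protein ATG2 supply membrane, and a ubiquitin-like conjugation system attaches LC3 and GABARAP proteins to it, where cargo receptors such as SQSTM1 dock. Neurons depend on this pathway for the clearance of proteins and organelles, and in fasted or wasting muscle several of its genes are known targets of FOXO transcription factors, while TFEB drives lysosomal and autophagy genes through a short promoter element named CLEAR.

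For the genes on which the results turn, the annotation (GENCODE vM21, on the mm10 genome that the study used) placed Atg13 at chr2:91674618-91710576, Ulk1 at chr5:110784488-110810097, Sqstm1 at chr11:50199366-50210827, Uvrag at chr7:98885021-99141141 and Map1lc3a at chr2:155276297-155278073. Values are for the whole gene. To show what TFEB and FOXO factors could read, the promoters of RefSeq (build GRCm38.p6, 250 bases before to 50 after the start) were searched on both strands for TCACGTG, the core of the CLEAR element, and for GTAAACA, a FOXO motif. Of the 35 genes 29 had an entry, with 34 promoters in all. TCACGTG lay in 3 of these 34 promoters (8.82%), against 3.77% of all 32851 promoters, and GTAAACA in none of the 34, against 3.65% of all. The letters say nothing about binding. The promoters with the CLEAR core belonged to Atg3, the E2-like enzyme of LC3 conjugation, Atg7, the E1-like enzyme of the same system, and Atg14, the subunit that places the PI3 kinase at the endoplasmic reticulum. In the windows below, written 5′ to 3′ on the strand of the gene, capitals mark the match.
Atg3, chr16:45158737-45158783, plus strand: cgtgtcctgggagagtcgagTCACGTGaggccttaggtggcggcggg
Atg7, chr6:114670943-114670989, plus strand: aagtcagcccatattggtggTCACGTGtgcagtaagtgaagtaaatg
Atg14, chr14:47568419-47568445, minus strand: aacaaaatccCACGTGActggccctga
The match began 72 bases before the RefSeq start in Atg3 and 133 bases before it in Atg7. The starts in the RefSeq table lay 44 bases inside the annotated gene for Atg3, but 27999 bases inside it for Atg7 and 2215 bases inside it for Atg14, so the windows of those genes are at internal starts and their outermost starts were not searched. In Atg3 the match is part of a palindrome that reads the same on the opposite strand, and a further match began 95 bases before the start. In Atg14 the match lay on the opposite strand and spanned that internal start. None of these 3 genes was called in any comparison: against mock, the log2 fold change in CAC over the 4 weeks was 0.04 to 0.15 for Atg3, -0.06 to 0.08 for Atg7 and -0.02 to 0.08 for Atg14.
The 3 genes that were higher in CAC at 8 weeks, Atg13 and Sqstm1 against mock and Atg13 and Ulk1 against NCAC, held neither motif in the same window. That is the usual case, as 3.77% and 3.65% of all promoters held the motifs, and control by TFEB or FOXO factors was not tested. The 60 bases before their starts, all on the minus strand, are shown.
Atg13, chr2:91710593-91710652: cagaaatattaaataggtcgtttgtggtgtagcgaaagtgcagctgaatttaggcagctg
Sqstm1, chr11:50210821-50210880: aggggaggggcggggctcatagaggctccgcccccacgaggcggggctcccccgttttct
Ulk1, chr5:110810082-110810141: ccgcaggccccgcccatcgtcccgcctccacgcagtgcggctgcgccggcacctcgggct

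In mock neocortex the proteins that coat the autophagosome were the most abundant transcripts of the machinery and its transcription factor the least. Over the 20 mock libraries, Gabarapl1, a GABARAP family protein known to be enriched in neurons, stood at 884 TPM ± 59.4 (SD). Sqstm1, the receptor p62 that links ubiquitinated cargo to LC3, followed at 320 ± 21.8, and Map1lc3a, one of the LC3 genes, at 284 ± 22.3. Gabarap at 186 ± 7.65 and Gabarapl2 at 180 ± 12.7 did not differ beyond their spread, and Map1lc3b stood at 112 ± 5.54.
The other members lay below 100 TPM. Atg9a, the scramblase that carries membrane to the growing autophagosome, led the membrane genes at 73.5 TPM ± 5.72, and Atg12, the ubiquitin-like protein joined to ATG5, led the conjugation system at 72.9 ± 4.39. Within the induction complex the kinase Ulk2 was at 65 ± 3.78 and its relative Ulk1 at 42.9 ± 2.57. In the PI3 kinase complex the scaffold Becn1 was highest at 47.1 ± 2.29, and Uvrag, the subunit of the complex that acts at endosomes and late autophagosomes, was lowest at 11.6 ± 1.14. Tfeb stood at 3.76 ± 0.563.
These were steady transcripts. The median coefficient of variation over the mock libraries was 7.73% for the members and 10.5% for all 14494 genes tested. The genes tested reach down to a mean of 1 TPM, whereas the members other than Tfeb averaged 11.6 TPM or more in mock. These medians are therefore not matched for level. The ratio of the highest to the lowest of the 12 group means ran from 1.05 for Gabarap to 1.43 for Uvrag.

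**Figure D1:**
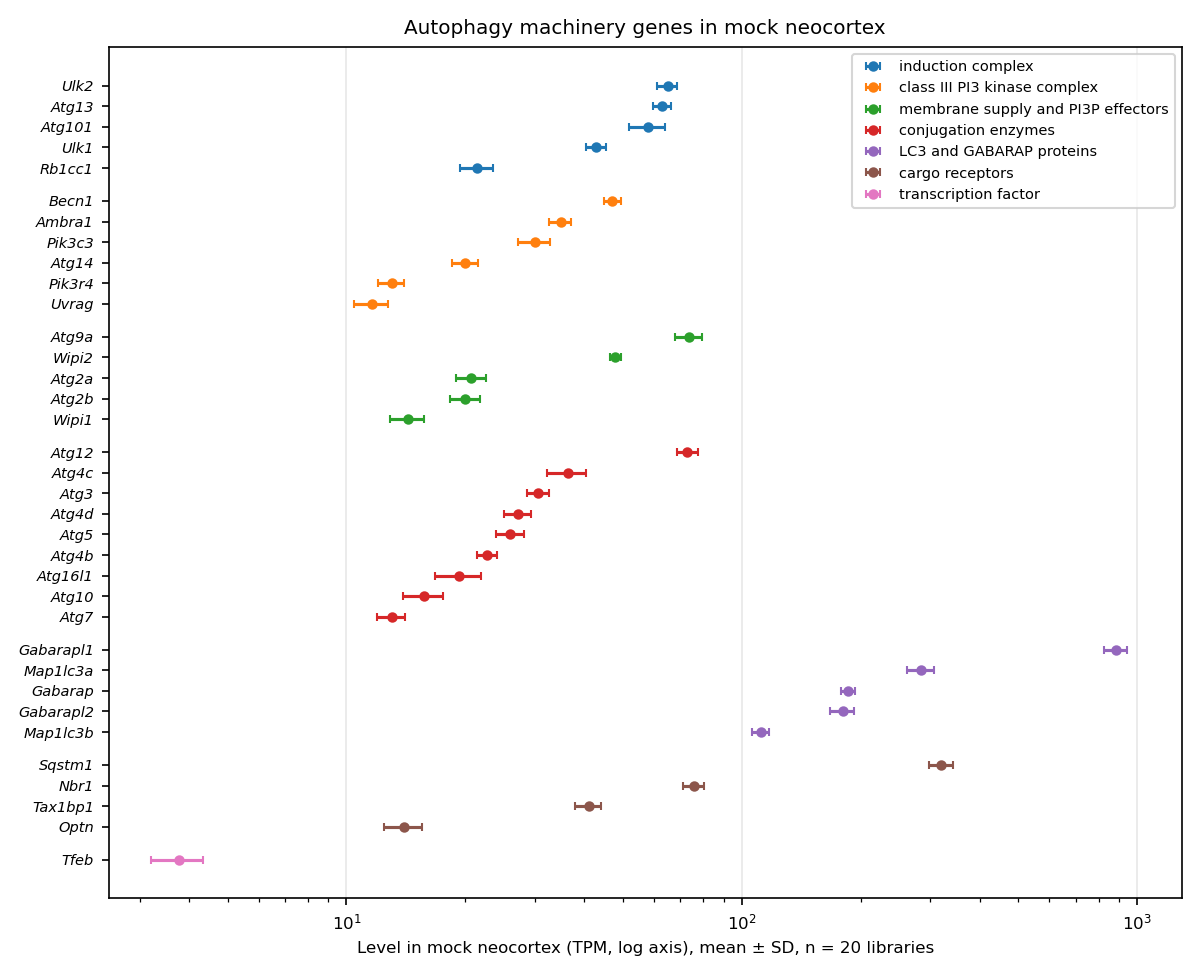
Level of each machinery gene in the 20 mock libraries (horizontal log axis, TPM; point, mean; bar, SD), with genes on the vertical axis grouped and coloured by role. Gabarapl1 lies farthest right at 884 TPM and Tfeb farthest left at 3.76 TPM.

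Each comparison was tested with limma, in 1 model of all groups that took in every gene averaging 1 TPM or more, on log2(TPM + 1), a scale that slightly understates changes of low genes. All 35 members passed that filter. A gene was called higher or lower at an adjusted p under 0.05, adjusted over the 14494 genes of the comparison. Every difference called among the members was small, between 11.6% and 23.2% higher, or 15.7% lower for the single lower one.

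The late weeks lie farthest from the injection, although no measure of wasting was among the values used here. At 8 weeks, CAC neocortex held more transcript of Atg13, the adaptor that joins the ULK kinases to the rest of the induction complex, and of the cargo receptor Sqstm1 than mock neocortex, and no member was lower. Thus 2 of 35 members were called, all higher, against 8.6% of all genes tested (4.91% higher and 3.69% lower). The share of members is therefore near or under the background. The median log2 fold change was 0.044 over the members and 0.015 over all genes. Of the 35 members 26 were above 0, or 23 with TMM scaling (described with the 6-week values). The share of all genes above 0 is not given here, nor for such counts in the other comparisons.
Atg13 measured 64, 64.5, 67.7, 64.6 and 63.1 TPM in mock, and from 63.5 over a median of 73.6 to 81.5 TPM in the 7 CAC libraries. In 6 of 7 CAC libraries it exceeded every mock library, and the exception, at 63.5, was replicate 3 with its erythroid transcripts. The means were 74.0 ± 5.46 and 64.8 ± 1.72 (SD, n = 7 and 5), a log2 fold change of 0.19 ± 0.05 (SE, limma adjusted p = 0.00978). NCAC libraries, at 59.8 to 68.3 TPM, overlapped the mock ones.
Sqstm1 measured 324, 343, 347, 318 and 309 TPM in mock and 337, 378 and 391 TPM as lowest, median and highest in CAC. Of the 7 CAC libraries 5 lay above every mock library, and replicates 3 and 5, at 338 and 337, lay within the mock range. The means were 370 ± 22.6 and 328 ± 16.3, a log2 fold change of 0.17 ± 0.05 (limma adjusted p = 0.0213). That call was lost without any one of mock replicates 1, 4 or 5 or CAC replicates 1 or 6, at adjusted p of 0.0519 to 0.0839, whereas Atg13 remained called without each library in turn (0.000762 to 0.0395).

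NCAC mice carry a melanoma as well, although the 2 arms received different cells, so cachexia and other differences between those cells cannot be told apart. Against NCAC at 8 weeks, Atg13 and Ulk1, the kinase that starts autophagy, were higher in CAC, again 2 of 35 members, against 6.02% of all genes (4.39% higher and 1.64% lower). The median log2 fold change of the members was 0.079 and that of all genes 0.052, and 29 of 35 were above 0, or 20 with TMM scaling.
Atg13 measured 65.5, 66.6, 68.3, 60.3 and 59.8 TPM in NCAC, below 6 of the 7 CAC libraries (log2 fold change 0.20 ± 0.05, limma adjusted p = 0.0064). Ulk1 measured 42.1, 43.6, 47.1, 39.2 and 40.6 TPM in NCAC, and 41.8, 48.9 and 52.6 TPM as lowest, median and highest in CAC. Of the CAC libraries 5 of 7 lay above all NCAC libraries, with means of 48.5 ± 3.72 and 42.5 ± 3.04 and a log2 fold change of 0.18 ± 0.05 (limma adjusted p = 0.0264). The Ulk1 call was lost without any one of NCAC replicates 1, 4 or 5 or CAC replicates 5, 6 or 7 (adjusted p 0.0544 to 0.122). Against mock, whose libraries lay at 41.9 to 46.1 TPM, Ulk1 was not called (0.12, adjusted p = 0.14), but it was without CAC replicate 3 (adjusted p = 0.0354).
The library with 22500 TPM of erythroid transcripts, replicate 3 of CAC, had the lowest level of its group for Atg13, Ulk1 and Uvrag. Without it and the other two libraries that stood apart, 5 members were called against mock at 8 weeks (4 higher: Atg13, Sqstm1, Ulk1 and Uvrag, and 1 lower: Wipi1), and 8 against NCAC (7 higher: Atg13, Ulk1, Uvrag, Ambra1, Wipi2, Atg2a and Atg2b, and 1 lower: Map1lc3a). Of these, Uvrag had a log2 fold change of 0.25 against mock (limma adjusted p = 0.012), compared with 0.20 and 0.064 with all libraries. The shares of all genes called in these and other refits without libraries are not given here. A change of count therefore cannot be read as particular to the members. With TMM scaling of all libraries, Atg2b was called against NCAC as well (0.17, limma adjusted p = 0.0286).
At the same time 4 of 8 microglial markers (median log2 fold change -0.345), 2 of 8 oligodendrocyte markers (-0.260) and 3 of 7 astrocyte markers were lower in CAC than in mock as was 1 of 6 inhibitory neuron markers, and 1 astrocyte and 1 endothelial marker were higher, while no excitatory neuron marker was called. Mock replicate 5, without which the Sqstm1 call was lost, had the highest microglial sum, 1040 TPM, against 545 to 593 TPM in the other mock libraries and 419 to 570 TPM in CAC. The choroid plexus sum had a median of 159 TPM in CAC, 1010 in mock and 1150 in NCAC, with overlapping ranges (59.4 to 2490 TPM in CAC, 110 to 2350 in NCAC and up to 2380 in mock) and none of its 5 markers called. Against NCAC 3 of 8 oligodendrocyte, 2 of 8 microglial and 2 of 7 astrocyte markers and 1 of 6 inhibitory neuron markers were lower in CAC, and 1 astrocyte and 2 endothelial markers higher. The part of cell composition in the member differences was not tested.

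**Figure D2:**
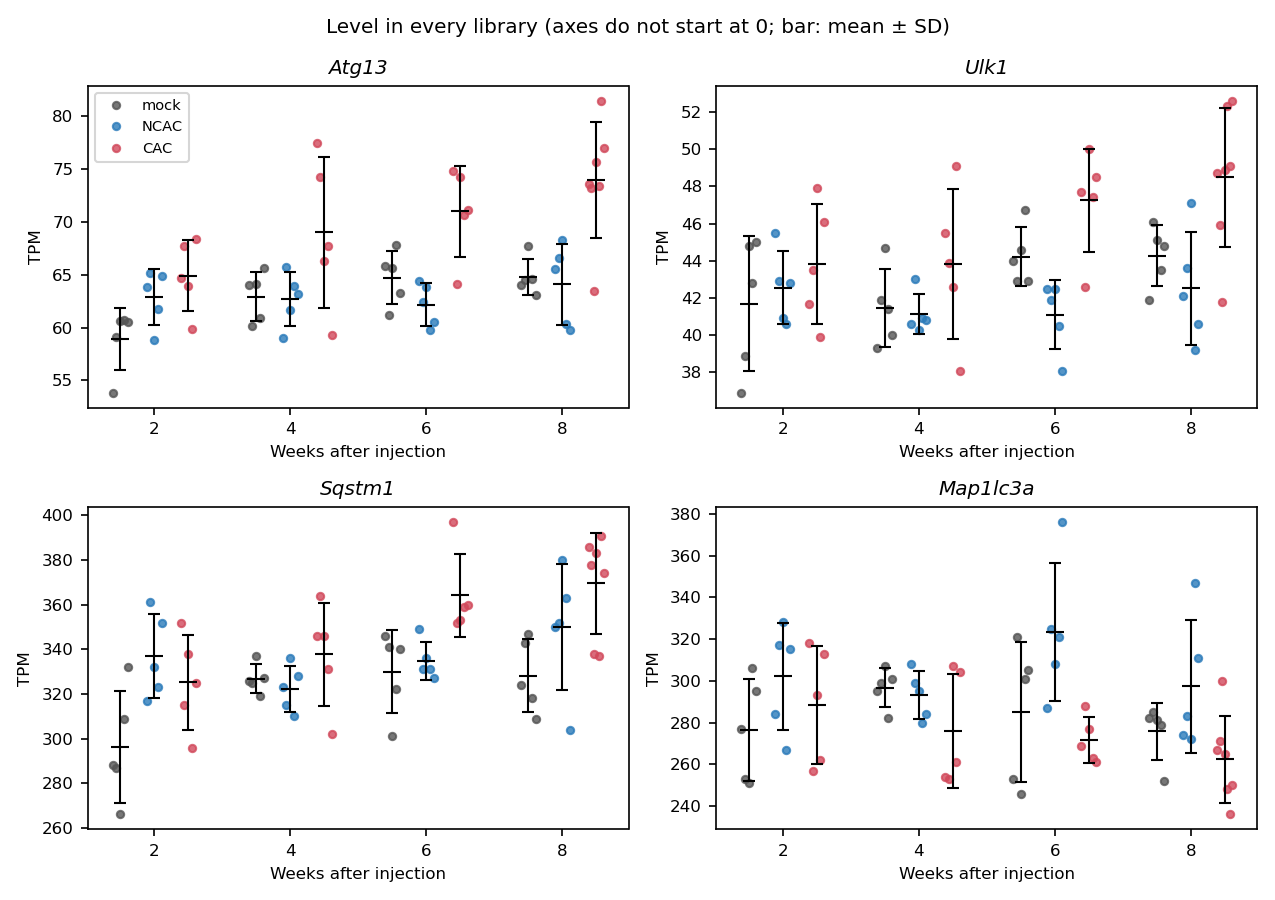
TPM of Atg13, Ulk1, Sqstm1 and Map1lc3a (vertical axes, not starting at 0) in every library by weeks after injection, with mock, NCAC and CAC side by side; points are libraries and black bars the mean ± SD. At 8 weeks 6 of 7 CAC points of Atg13 lie above all mock points, and at 6 weeks all 5 CAC points of Ulk1 lie above the NCAC points.

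The remaining members did not pass the test against mock at 8 weeks. Unadjusted p-values were under 0.05 for 5 more: Ulk1 and Atg101 of the induction complex, Uvrag, the GABARAP gene Gabarapl1, and Wipi1, a PI3P-binding protein, the only one of the 5 with a lower mean in CAC. Gabarapl1 averaged 975 TPM ± 33.5 in CAC and 902 ± 49.1 in mock (0.11 ± 0.04, adjusted p = 0.0885), and Wipi1 averaged 13.3 ± 1.26 and 15.2 ± 1.91 (-0.18 ± 0.07, adjusted p = 0.107). Gabarapl1 crossed the threshold without CAC replicate 5 (adjusted p = 0.0451), and Uvrag without CAC replicate 3 or 5 (0.0124 and 0.0373). Uvrag was also called with TMM scaling of all libraries (0.19, limma adjusted p = 0.0486). None of the 9 conjugation enzymes had an unadjusted p under 0.05; their log2 fold changes ran from -0.08 to 0.13. Tfeb averaged 3.39 TPM ± 0.516 in CAC and 3.58 ± 0.518 in mock (-0.06 ± 0.08, adjusted p = 0.706). NCAC against mock at 8 weeks gave no call by limma among the members or among all genes (0%), with 1 member, Atg2a, and 636 genes at an unadjusted p under 0.05.

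At 6 weeks 5 members were called between the 2 tumour arms. Compared with NCAC, CAC neocortex had higher Ulk1 and Atg13, higher Wipi2, which recruits the conjugation enzymes to PI3P, and higher Atg2b, a lipid transfer protein, and lower Map1lc3a. These 5 of 35 members stand against 9.65% of all genes tested, and the 4 higher and 1 lower against 8.05% higher and 1.6% lower. The medians were close, 0.1 for the members and 0.083 for all genes, and 30 of 35 members were above 0. With TMM scaling, which sets the libraries to a common trimmed mean ratio, the medians became 0.018 and 0.007, 20 of 35 members were above 0, and 2 members were called, Atg2b higher and Map1lc3a lower, in place of 4 higher and 1 lower.
Ulk1 measured 42.5, 41.9, 42.5, 40.5 and 38.1 TPM in NCAC and 47.7, 42.6, 50, 47.4 and 48.5 TPM in CAC. The groups did not overlap, as was the case for 6.74% of all genes, and the log2 fold change was 0.20 ± 0.06 (limma adjusted p = 0.0261). Atg13 measured 64.4, 62.4, 63.8, 59.8 and 60.5 TPM in NCAC and 74.8, 64.1, 74.3, 70.7 and 71.1 TPM in CAC. Its groups overlapped through CAC replicate 2 alone, and the log2 fold change was 0.19 ± 0.05 (adjusted p = 0.0209).
Atg2b showed the largest of the called increases. It measured 20.6, 17.2, 19.1, 16.9 and 16.8 TPM in NCAC and 21.9, 18.8, 23.4, 22.9 and 24 TPM in CAC, a log2 fold change of 0.28 ± 0.08 (adjusted p = 0.0216). Wipi2, one of the least variable members, averaged 45.5 ± 1.95 in NCAC and 51.4 ± 3.13 in CAC (0.17 ± 0.05, adjusted p = 0.0201). CAC replicate 2, the library nearest to NCAC for Atg13, was also the lowest CAC library for Ulk1, Wipi2 and Atg2b. Its microglial markers summed to 1100 TPM, against 492 to 516 TPM in the other 4 CAC libraries and 529 to 596 TPM in NCAC.
Map1lc3a went the other way. It measured 287, 325, 308, 321 and 376 TPM in NCAC and 269, 288, 277, 263 and 261 TPM in CAC, so 4 of 5 CAC libraries lay below every NCAC library. The log2 fold change was -0.25 ± 0.07 (limma adjusted p = 0.0291), and the highest value, 376, belonged to NCAC replicate 5. It was also below NCAC at the other 3 weeks in the mean, with log2 fold changes from -0.25 to -0.07 over the 4 weeks, as were Tfeb (-0.11 to -0.02) and Atg12 (-0.04 to -0.01), though none of those other differences was called.
All 5 calls at 6 weeks were lost without any one of NCAC replicate 4, NCAC replicate 5 or CAC replicate 1 (adjusted p 0.0529 to 0.131). CAC replicate 1 is the library with hypothalamic and pituitary markers 2.59 log2 units above the median. Wipi2 was lost also without CAC replicate 5 (0.0598), Ulk1 without CAC replicate 3, 4 or 5 (0.0573 to 0.0622), and Atg2b and Map1lc3a without NCAC replicate 2 or CAC replicate 4 or 5 (0.0568 to 0.0708). Without CAC replicate 2, in contrast, 10 members were called, with the share of all genes in that refit not given here. In the same comparison 5 of 8 oligodendrocyte markers were lower in CAC (median -0.369), their sum running from 2050 to 2300 TPM in CAC and from 2300 to 2980 TPM in NCAC, while 1 astrocyte and 2 endothelial markers were higher and 2 astrocyte markers lower. The choroid plexus sum had a median of 178 TPM in CAC and 1600 TPM in NCAC, with ranges of 18.3 to 2610 and 24.5 to 2770 TPM and no marker called. The part of cell composition in the member differences was not tested.

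No member was called against mock at 6 weeks in either tumour arm by limma. For CAC, the difference from NCAC departs from the difference from mock by the NCAC to mock difference, which was called for no gene (0%). For CAC, 0 of 35 members were called against 1.63% of all genes (1.2% higher and 0.428% lower), and 5 had an unadjusted p under 0.05. Sqstm1 had the lowest of these: its mock libraries measured 346, 341, 301, 322 and 340 TPM and its CAC libraries 397, 352, 353, 359 and 360 TPM. The groups did not overlap, as for 3.69% of all genes, but the difference of 0.14 ± 0.05 did not pass (adjusted p = 0.169). Atg13 averaged 71.0 ± 4.25 in CAC and 64.7 ± 2.54 in mock (0.13 ± 0.05, adjusted p = 0.218). Of the 35 members 28 were above 0 in CAC (23 with TMM scaling), with a median of 0.050 against 0.027 for all genes. In NCAC the median was -0.057 against -0.054, 9 members were above 0 (17 with TMM scaling), and no gene at all was called (0%), with 3 members and 953 genes at an unadjusted p under 0.05. The kinase Ulk1, at 41.1 TPM in NCAC and 44.2 in mock, was the 1 member without overlap there (0.704% of all genes; -0.10, adjusted p = 0.662). Between weeks 6 and 8, limma called no change of how CAC stood to mock in any member or other gene (0%; 0 members and 186 genes at an unadjusted p under 0.05).

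At 4 weeks no member was called in any of the 3 comparisons by limma. The background was 0.0414% of genes for CAC against mock, 0% for NCAC against mock and 0.0069% for CAC against NCAC, with unadjusted p under 0.05 for 3, 0 and 3 members and 1895, 89 and 2361 genes. The CAC group was wide: Atg13 measured 77.5, 74.3, 66.3, 67.7 and 59.3 TPM, against 60.1 to 65.6 TPM in mock and 59 to 65.7 TPM in NCAC. CAC replicate 5, at 59.3, was the lowest of its group for Ulk1, Uvrag, Atg9a, Atg4c and Atg2b as well. Without it 5 members were called against NCAC, with the share of all genes in that refit not given here. No member was free of overlap, against 0.869%, 0.255% and 1.2% of all genes in the 3 comparisons. At this week mock was run on another lane than CAC and 4 of 5 NCAC libraries. With lane as a term the count of calls was 0 in all 3 comparisons too. That term rests on NCAC replicate 5 alone, because no other group was split over the lanes, so it cannot tell lane and arm apart.

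**Figure D3:**
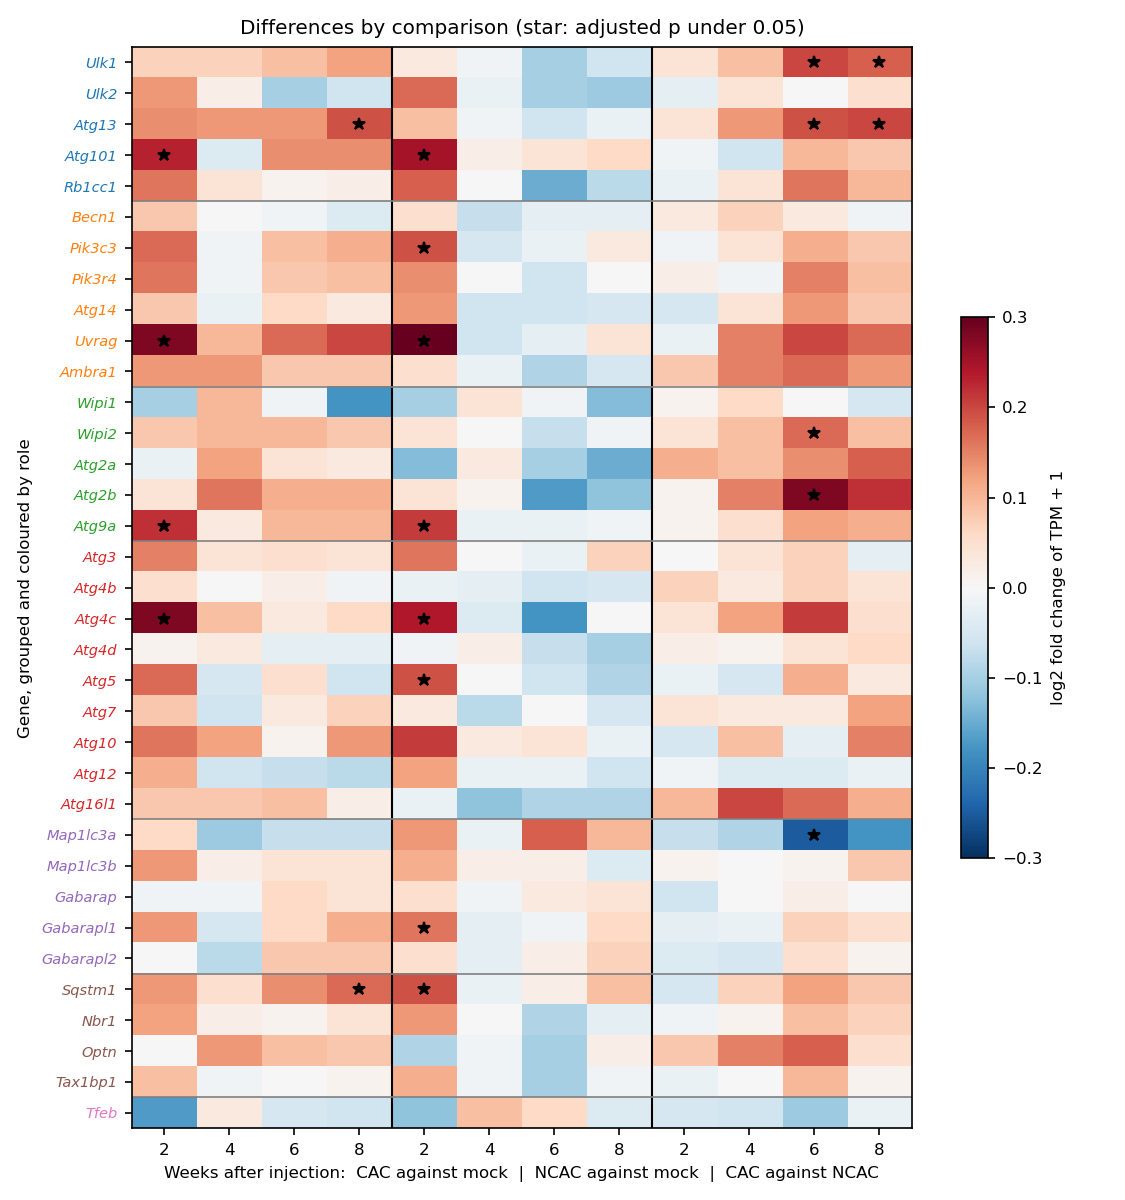
Log2 fold change of TPM + 1 (colour scale from -0.3 to 0.3) for each of the 35 genes (rows, grouped by role) in the 12 comparisons within a week (columns: CAC against mock, NCAC against mock and CAC against NCAC at 2, 4, 6 and 8 weeks); stars mark an adjusted p under 0.05. Stars at 2 weeks sit in both columns against mock, those at 6 weeks in the column of CAC against NCAC, and those at 8 weeks in both columns with CAC.

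At 2 weeks some members were higher in a tumour arm than in mock, Uvrag, Atg9a, Atg4c and Atg101 in each arm, and none was called between the arms. For CAC 4 of 35 members were called, all higher, against 4.28% of all genes (3.68% higher and 0.6% lower). For NCAC 8 of 35 were called, all higher, against 8.71% of all genes (5.87% higher and 2.84% lower). Members had a median log2 fold change of 0.114 in each arm, against 0.036 and 0.022 for all genes. Of the 35 members 30 and 28 were above 0, or 27 and 28 with TMM scaling. Both comparisons use the same 5 mock libraries and are not independent. CAC against NCAC had no call among the members or among all genes by limma (0%), with 0 members and 616 genes at an unadjusted p under 0.05, and member log2 fold changes from -0.07 to 0.11; libraries of every member overlapped, as they did for all but 0.676% of genes.
Uvrag had the largest differences. It measured 9.95, 9.48, 10, 10.9 and 9.70 TPM in mock, 12.4, 13.2, 11.8, 11.2 and 13.5 TPM in CAC, and 13, 12.7, 10.9, 12.3 and 13.9 TPM in NCAC. The mock libraries lay below all those of either tumour arm, a separation that 4.19% of all genes had for CAC and 4.07% for NCAC. For NCAC the gap was smaller than the rounding, as the highest mock and the lowest NCAC library both stood at 10.9 TPM. The log2 fold changes were 0.28 ± 0.08 and 0.30 ± 0.08 (limma adjusted p = 0.0279 and 0.0167).
Atg9a measured 59.8, 65.8, 65.4, 73.5 and 71.9 TPM in mock, 78.4, 81.0, 81.2, 66.3 and 84.7 TPM in CAC, and 82.3, 78.0, 73.7, 74.5 and 80.6 TPM in NCAC. CAC replicate 4, at 66.3, was the exception in its group, and NCAC did not overlap mock. The log2 fold changes were 0.22 ± 0.06 and 0.21 ± 0.06 (adjusted p = 0.0217 and 0.0189).
Atg4c, a protease that trims LC3 and GABARAP proteins, averaged 31.2 TPM ± 2.49 in mock, 38 ± 3.67 in CAC (0.28 ± 0.08, adjusted p = 0.0301) and 36.9 ± 2.22 in NCAC (0.24 ± 0.08, adjusted p = 0.0431). Atg101, the partner that stabilises ATG13, averaged 50.9 ± 6.16, 59.7 ± 2.34 and 60.4 ± 5.81 (0.23 and 0.25, adjusted p = 0.0293 and 0.0174). Its mock libraries measured 48.2, 47, 46.9, 61.6 and 50.6 TPM, so 1 of them lay among the tumour libraries.
In NCAC the further calls were Pik3c3, the catalytic subunit of the PI3 kinase (0.19 ± 0.06, adjusted p = 0.0453), Atg5, the partner of ATG12 (0.19 ± 0.06, 0.0327), Gabarapl1 (0.16 ± 0.05, 0.0279) and Sqstm1 (0.19 ± 0.05, 0.0263). The same 4 genes had means of 30, 26.7, 883 and 325 TPM in CAC and 26.5, 23.5, 806 and 296 TPM in mock, each with an unadjusted p under 0.05 in CAC but no call. Tfeb had the lowest log2 fold change of the members in CAC, -0.17, and was not called.

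These early calls rested on few libraries. In CAC, Atg9a was lost without mock replicate 1 or CAC replicate 1 or 5 (adjusted p 0.0608 to 0.0994). Uvrag was lost without mock replicate 1, 2 or 5 or CAC replicate 1, 2 or 5 (0.0579 to 0.106), Atg4c without mock replicate 1 or 5 or CAC replicate 1, 2 or 5 (0.0643 to 0.113), and Atg101 without mock replicate 1, 2, 3 or 5 or CAC replicate 1, 3 or 5 (0.059 to 0.0937). Without CAC replicate 4, the lowest of its group for Uvrag, Atg9a, Atg4c and Atg101, 12 members were called. The share of all genes called in that refit is not given here. In NCAC none of the 8 was called without replicate 2 or replicate 5 of that group (adjusted p 0.0566 to 0.139). Uvrag and Atg101 remained called without each other library, and Atg9a was lost also without mock or NCAC replicate 1. The others were lost also without mock replicates 1 to 4 or NCAC replicate 1 or 4 (Pik3c3), mock replicates 1 to 4 or NCAC replicate 1 (Atg5), mock replicate 1, 3 or 5 or NCAC replicate 1 (Atg4c), mock replicate 2 or 3 or NCAC replicate 1 (Gabarapl1), and mock replicate 2 or 3 (Sqstm1), at adjusted p of 0.0502 to 0.112.
Without the 3 libraries that stood apart, among them mock replicate 5, Uvrag and Atg9a stayed called in CAC, and Atg101 (0.0536) and Atg4c (0.0587) did not. With TMM scaling Atg101 was not called in CAC (0.101), nor Gabarapl1 in NCAC (0.0608), while in NCAC Ulk2 (0.14, adjusted p = 0.0245), Pik3r4 (0.12, 0.0359) and Nbr1 (0.10, 0.0321) were also called higher and Atg2a lower (-0.15, 0.049). Without a filter on level, Pik3c3 (0.0647) and Atg4c (0.0654) were not called in NCAC. Fitted on the compared groups alone, no member was called at 2 weeks in either arm.
The mock group of week 2 was itself low in many of these genes. Its mean was the lowest of the 12 group means for 20 of 35 members, and the lowest of the 4 mock means for 28. The shares of all genes with their lowest mean in that group are not given here, so this cannot be read as particular to the members. In the same comparisons 4 of 8 excitatory neuron markers were higher in each tumour arm (median log2 fold change 0.430 in CAC and 0.407 in NCAC), their sum running from 2810 to 5250 TPM in mock, 4440 to 5920 TPM in CAC and 4180 to 5420 TPM in NCAC. Endothelial markers were lower, 2 of 7 in CAC and 4 of 7 in NCAC, and in NCAC 2 of 5 choroid plexus markers were higher and 1 of 6 thalamic markers lower. CAC replicate 4, without which 12 members were called, had the lowest choroid plexus sum of its group, 42.1 TPM. The part of tissue content in the member differences was not tested. The CAC to mock difference at 8 weeks was not called against that at 2 weeks for any member (limma; 1.32% of all genes called, 0.607% higher and 0.711% lower), and 5 members had an unadjusted p under 0.05, with Atg5 the lowest (-0.23 ± 0.08, adjusted p = 0.13).

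**Figure D4:**
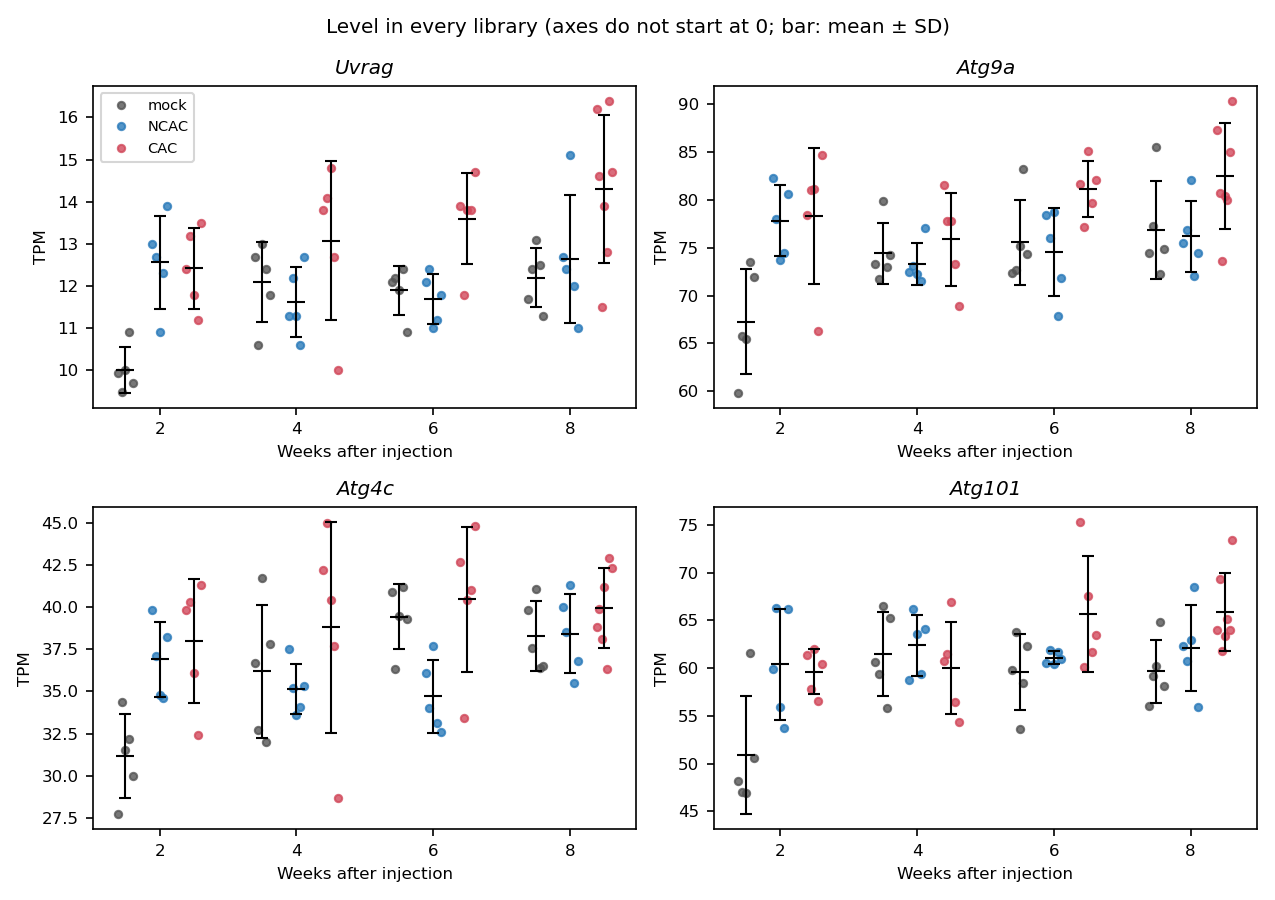
TPM of Uvrag, Atg9a, Atg4c and Atg101 (vertical axes, not starting at 0) in every library by weeks after injection; points are libraries and black bars the mean ± SD. At 2 weeks all 5 mock points of Uvrag, 9.48 to 10.9 TPM, lie below the tumour points of that week, the lowest of which, in NCAC, also rounds to 10.9 TPM. The mock means of the other weeks are higher.

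Read across the weeks, the CAC group at 8 weeks had the highest of the 12 group means for 19 of 35 members. In the mean, 15 members were above mock at all 4 weeks in CAC and 1 in NCAC, and 13 were above NCAC at all 4 weeks in CAC. With TMM scaling these counts were 6, 3 and 6. All of these counts carry no test, and the comparisons of a week share libraries. The shares of all genes with the same patterns are not given here, so the counts cannot be read as particular to the members. In the induction complex, Ulk1 and Atg13 were above mock at every week in CAC under either scaling, while Rb1cc1, a scaffold of the complex, was so with TPM as deposited but ranged from -0.02 to 0.12 with TMM scaling. In the PI3 kinase complex Uvrag and Ambra1, an activator of BECN1, were above mock at every week under either scaling, whereas Becn1 stayed within log2 fold changes of -0.04 to 0.08. Among mock libraries no member was called between 4 and 8 weeks, the longest span on a single lane (0% of all genes called by limma; 1 member, Atg2a, also the 1 without overlap against 7.55% of all genes, and 2059 genes at an unadjusted p under 0.05).

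Some genes that regulate or complete autophagy differed by more than any member did. Beyond the core, 76 further pathway genes were followed: 11 other machinery genes, 16 upstream kinases and sensors, 12 mitophagy and ER-phagy receptors, 13 genes of fusion with lysosomes, 18 lysosomal genes and 6 FOXO and MiT transcription factors. At 8 weeks, CAC had 7 of them higher and 1 lower against mock, around a median log2 fold change of 0.061, and 7 higher and 1 lower against NCAC. The shares over all genes were 8.6% (4.91% higher) and 6.02% (4.39% higher). With both directions together the first count is near its background, while its 7 higher genes are a larger share than 4.91%, which was not tested. The median over all genes of each comparison is given with the members above. Without CAC replicate 3 the counts were 13 and 17. Against NCAC they were 18 without NCAC replicate 3, 3 without NCAC replicate 4, 4 without CAC replicate 6, and 5 without NCAC replicate 1, 2 or 5 or CAC replicate 1. The shares of all genes called in those refits are not given here.
The largest difference was that of Ddit4 (REDD1), a stress-induced inhibitor of mTORC1 and a known glucocorticoid target. It measured 53.3, 46, 42.2, 48.8 and 50.8 TPM in mock and 67.8, 102 and 142 TPM as lowest, median and highest in CAC, with no overlap. The log2 fold change was 1.10 ± 0.20 (limma adjusted p = 0.000167), a 2.14-fold difference, and NCAC libraries lay at 38.8 to 63.7 TPM. Sesn1, a sestrin that restrains mTORC1, measured 51.7 to 53.4 TPM in mock and 52.8, 75.6 and 92.8 TPM in CAC (0.50 ± 0.10, adjusted p = 0.000439). CAC replicate 3 was again the lowest library of its group for both.
Pink1, the kinase that marks damaged mitochondria for mitophagy, was abundant, at 381, 408, 384, 407 and 380 TPM in mock and 436, 474 and 507 TPM in CAC. All 7 CAC libraries lay above all mock libraries, with a log2 fold change of 0.26 ± 0.05 (adjusted p = 0.000167). It was the single pathway gene called against mock at 6 weeks, too, where mock measured 406, 412, 379, 404 and 411 TPM and CAC 485, 470, 449, 506 and 430 TPM (0.22 ± 0.05, adjusted p = 0.0138); that call, against 1.63% of all genes, was lost without mock replicate 3 or CAC replicate 1 or 4 (0.0649 to 0.0809), with TMM scaling (0.13) and on the compared groups alone (0.0671).
Among fusion and lysosomal genes at 8 weeks, Vps11, a subunit of the HOPS tether, averaged 75.6 ± 7.34 in CAC and 62.7 ± 2.70 in mock (0.26 ± 0.06, adjusted p = 0.0057). Psap, the precursor of the saposins, was higher (0.16 ± 0.04, adjusted p = 0.00961), as were Tollip, an adaptor for ubiquitinated cargo (0.20, 0.0336), and Wdr45, a PI3P-binding protein (0.15, 0.0495). Hexa, the alpha subunit of the lysosomal beta-hexosaminidase, was lower, at 64.7 to 86.7 TPM in mock and 45.9, 58.2 and 71.1 TPM in CAC (-0.39 ± 0.09, adjusted p = 0.00363). The calls of Ddit4, Sesn1, Pink1, Vps11, Psap and Hexa remained without each library in turn. Those of Tollip and Wdr45 were lost without any one of 7 libraries, mock replicates 1, 4 and 5 and CAC replicates 1, 2, 6 and 7 (adjusted p 0.0577 to 0.192). Fitted on the compared groups alone, Psap (0.0516), Tollip (0.0716) and Wdr45 (0.123) were not called, and Wdr45 was lost as well with a pseudocount of 0.1, without a filter or with robust moderation (0.0505 to 0.0632).

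**Figure D5:**
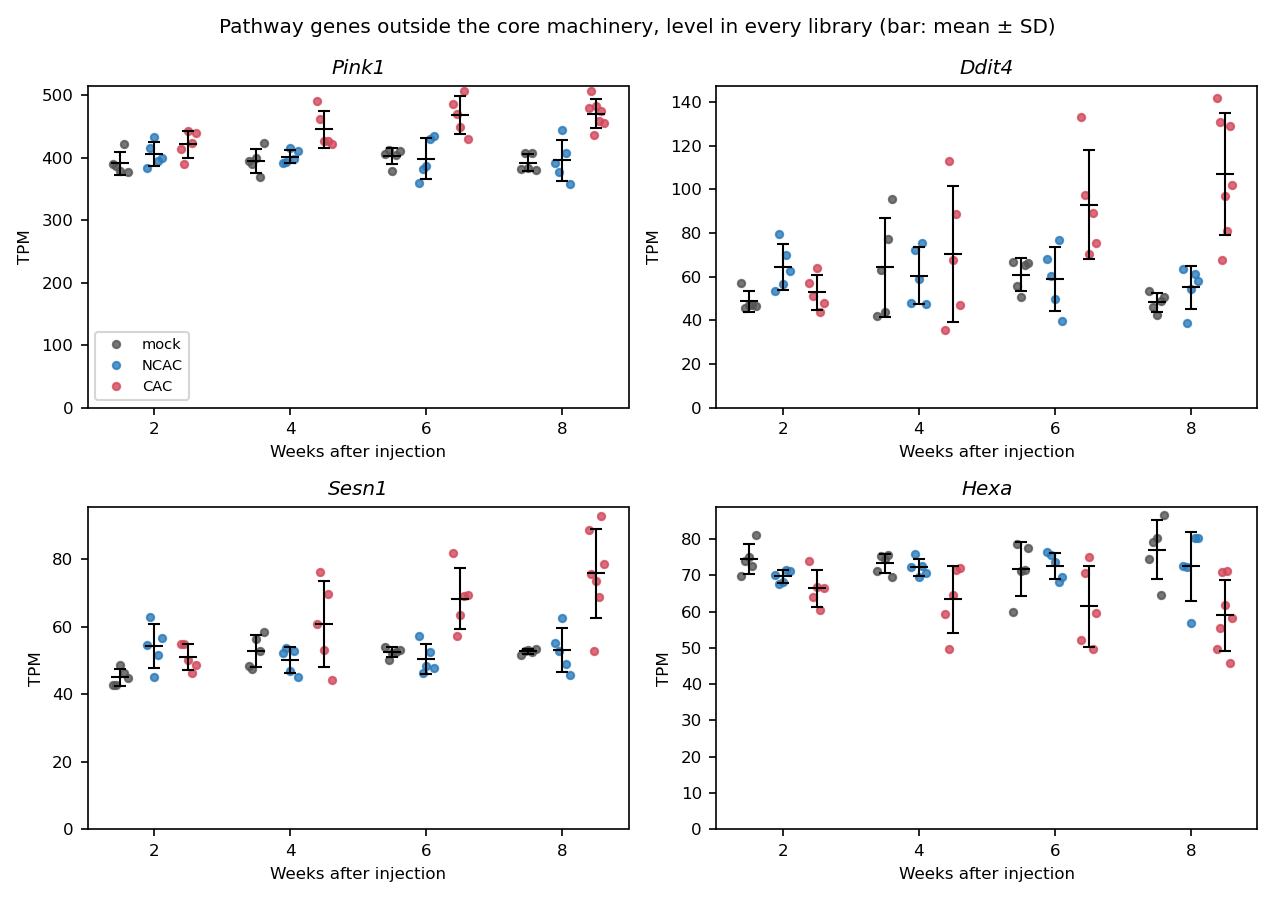
TPM of Pink1, Ddit4, Sesn1 and Hexa (vertical axes from 0) in every library by weeks after injection; points are libraries and black bars the mean ± SD. At 8 weeks all 7 CAC points of Ddit4 and Pink1 lie above all mock points, and those of Hexa lie at 45.9 to 71.1 TPM.

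Against NCAC at 6 weeks 15 of the 76 pathway genes were higher and none lower, beside 8.05% higher and 1.6% lower of all genes, with Sesn1 (0.42 ± 0.10, limma adjusted p = 0.00984), Ddit4 (0.65 ± 0.21, 0.0429), Pink1 (0.23 ± 0.05, 0.00378) and Vps11 (0.33 ± 0.07, 0.00256) among them; with TMM scaling 6 were higher and 2 lower, and Pink1 (0.17) and Ddit4 (0.107) were not called. On the compared groups alone 5 were called, Pink1 (0.059) and Ddit4 (0.0714) not among them, and Ddit4 was lost without a filter too (0.0718). The count was 6 without CAC replicate 1, 7 without NCAC replicate 5, 9 without CAC replicate 4 or 5, and 24 without NCAC replicate 1 or CAC replicate 2. For these refits the shares of all genes called are not given here. The Sesn1 call was lost without CAC replicate 1 (0.0567), and that of Ddit4 without NCAC replicate 2, 3 or 5 or CAC replicate 1, 4 or 5 (0.0522 to 0.162). At 2 weeks CAC exceeded mock in 4 of the 76 pathway genes, near the 3.68% higher of all genes: Wdr45 (0.20, adjusted p = 0.0313), the late endosome GTPase Rab7 (0.14, 0.0479), the proton pump subunit Atp6v0d1 (0.18, 0.0269) and Foxo3, a FOXO factor known to drive autophagy genes in wasting muscle (0.26, 0.0191). All 4 calls were lost without any one of mock replicates 1 or 5 or CAC replicates 1 or 5 (adjusted p 0.0501 to 0.185), Wdr45 also without mock replicate 2 or CAC replicate 3, Rab7 without mock or CAC replicate 2 or 3, and Atp6v0d1 without mock replicate 2 or 3. On the compared groups alone none of the 4 was called (0.155 to 0.204), with TMM scaling only Foxo3 was (Wdr45 0.0586, Rab7 and Atp6v0d1 0.105), and Rab7 was lost also without a filter (0.065) or without the 3 libraries that stood apart (0.0531). Without CAC replicate 4, 14 pathway genes were called, again with no share of all genes given for that refit. In NCAC 11 were higher and 1 lower, beside 5.87% and 2.84% of all genes, 6 were called without a filter and 0 on the compared groups alone, and none was called without NCAC replicate 2 or 5.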

How the data were processed

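The deposited table holds TPM per gene and library, made by the authors; the genome was mm10 per the submitters' processing notes, and no aligner or counter was given in the sources used here. Per the labels' protocols, libraries were stranded mRNA preparations of Trizol RNA; that text also refers to injection of LLC cells, another tumour line. No header or label gives counts; read depth was inferred from step sizes among low TPM values and exon lengths (86.4% of 207444 values of 0.5 to 10 reads whole within 0.05 reads), with a median of 48.1 M reads. No 2 libraries were identical.

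Values were fitted as log2(TPM + 1) with limma 3.58.1 in R 4.3.3 (trended moderation, 14494 genes averaging 1 TPM or more, 12 groups, 50 residual degrees of freedom), with Benjamini-Hochberg adjustment within each comparison and no block, lane or other covariate. Same-numbered libraries did not pair (correlations of -0.252 to 0.276). Members and lists were chosen with earlier results of these data known. Members called in any comparison are named with their fold changes and adjusted p (13 genes), some of them with the value of each library. Called pathway genes of CAC against mock are named too, at most 4 per list. The script was tested on simulated data of 14494 genes, with 50 genes changed at each fold size. For CAC against mock at 8 weeks, 16% of genes changed 1.2-fold, 74% of those changed 1.5-fold and 96% of those changed 2-fold were recovered, with 5.3% of calls false. Alternatives were a pseudocount of 0.1, no filter, TMM scaling, robust moderation, a lane term, a replicate block, only the groups compared, and libraries left out singly or 3 together. No protein sequences were used here.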

Additional observations from a re-analysis of the deposited data

Results flagged for a closer look

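The members called in any comparison were examined in each group of 4 to 10 libraries, 156 sets in all. In 7 of them 1 library lay far from the others by Dixon's criterion. That is about what chance gives, as it meets the criterion in about 1 of 20 sets. At 2 weeks in mock the libraries that lay far were replicate 1 for Atg13, at 53.8 TPM against 59.1 to 60.7, and replicate 4 for Atg101, at 61.6 TPM against 46.9 to 50.6. Ulk1 stood at 43 TPM in NCAC replicate 2 at 4 weeks, with the others at 40.3 to 40.9. Atg9a stood at 83.2 TPM in mock replicate 4 at 6 weeks, above 72.4 to 75.2, and at 77.1 TPM in NCAC replicate 5 at 4 weeks, above 71.5 to 73.1; the latter is the one NCAC library of that week on lane 4. Map1lc3a stood at 252 TPM in mock replicate 5 at 8 weeks, below 279 to 285. Sqstm1 stood at 397 TPM in CAC replicate 1 at 6 weeks, above 352 to 360.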

How the results depend on the processing

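Of the counts of members called under settings other than leaving out 1 library, 97 stayed within 1.5 times the reported count and 11 did not. Most of those that stayed were counts of 0 that remained 0, in comparisons without any member called, and they say little about stability. All 11 that moved belonged to comparisons with a member called. No difference called among the named genes reversed its direction. Signs of differences that were not called could turn with TMM scaling, as for Rb1cc1 in CAC against mock. Fitted on only the groups compared, the counts were 0 for CAC against mock and 0 for NCAC against mock at 2 weeks, 0 for CAC against NCAC at 6 weeks, and 1 against mock and 0 against NCAC for CAC at 8 weeks; that fit has fewer libraries to estimate the spread. TMM scaling left 2 for CAC against NCAC at 6 weeks. Without the 3 libraries that stand apart, the counts were 2 for CAC against mock at 2 weeks, 5 for CAC against mock at 8 weeks and 8 for CAC against NCAC at 8 weeks. With the replicate block the counts at 8 weeks were 0 against mock and 0 against NCAC, Psap (adjusted p 0.0831), Tollip (0.233) and Wdr45 (0.241) were not called against mock at that week, and the counts of members at 2 and 6 weeks did not change; same-numbered libraries share only a number, and replicates 6 and 7 exist only in CAC at 8 weeks, so the block takes those 2 libraries out of the comparison. Leaving out 1 library at a time, the counts ran from 0 to 12 (CAC against mock, 2 weeks), 0 to 10 (NCAC against mock, 2 weeks), 0 to 1 (CAC against mock, 4 weeks), 0 to 5 (CAC against NCAC, 4 weeks), 0 to 10 (CAC against NCAC, 6 weeks), 1 to 4 (CAC against mock, 8 weeks) and 1 to 6 (CAC against NCAC, 8 weeks). The share of all genes called in each of these refits is not given here, so the ranges describe the counts of members alone. Apart from what each setting removes, the cause was not tested. In simulation, changes of 1.2-fold were recovered for 16% of 50 changed genes at 8 weeks and for 36% of 50 at 6 weeks (with 6.75% of calls false at 6 weeks). Recovery for genes with the level and spread of the members is not given here, and may differ from these shares. Smaller changes were not simulated. Most differences here were of about that size or less, so a gene that was not called may still differ.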
